A study of Mus musculus with 6 samples.

Results

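Cwc22 (ENSMUSG00000027014) was 1 of the 54532 genes in a count table from mouse hearts and was the only row with that name. It was chosen by its uneven level in these same 6 hearts, so its own levels are given as a description, without a test. Cwc22 encodes a spliceosome-associated protein with an MIF4G domain, a fold also found in the translation factor eIF4G. It binds the helicase eIF4A3 and brings it to the spliceosome, where eIF4A3 becomes the core of the exon junction complex, the set of proteins left on a spliced mRNA upstream of each exon junction. That mark is read during mRNA export, translation and nonsense-mediated decay. In mice, a segment of chromosome 2 that includes Cwc22 is known to differ in copy number between strains and wild populations. The number of copies in these animals was not measured, because the files hold read counts per gene and no genotyping of this locus.

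The hearts came from mice whose Na/K-ATPase, the sodium pump that binds cardiotonic steroids such as ouabain, differed in its α1 subunit. In α1s/sα2s/s (sensitive) mice both α1 alleles carried knock-in amino acid substitutions that raise the affinity for these steroids in every tissue expressing α1, and in α1r/rα2s/s (resistant) mice both α1 alleles were the naturally resistant mouse form. Both groups carried the sensitive α2 form, were 3 months old and had a C57BL/6 background reached by backcrossing, and no treatment was named for these hearts. Whole-heart RNA was sequenced from 3 resistant mice (368, 369 and 370) and 3 sensitive mice (379, 380 and 381).

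Total counts per heart ran from 19309312 to 20470065. Levels are given as CPM, the share of a library's counts per gene on a common scale, after scaling libraries by the trimmed mean of M-values (TMM), or as RPKM, which divides CPM by gene length in kilobases, where genes are compared with each other. Tests between genotypes used edgeR's quasi-likelihood test over 14866 genes with enough counts, and a gene was called at a Benjamini-Hochberg adjusted p under 0.05. By this rule 1.44% of the tested genes were called, with 116 (0.78%) higher and 98 (0.659%) lower in sensitive hearts. All 8 cardiomyocyte markers were tested, and their summed level was 48300 to 59200 CPM in resistant and 53000 to 57500 CPM in sensitive hearts. The labels do not say that the samples of a group were processed separately, so p-values measure only the spread between these 6 samples.

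In the mouse genome (GRCm38, mm10) Cwc22 lies on the minus strand of chromosome 2, from 77881159 to 77946375. The annotation gives it 13 transcripts, 7 of them protein coding, with up to 21 exons over 65217 bases. The promoter is shown because the results turn on how much of this transcript each heart held. RefSeq's window for GRCm38.p6, from 250 bases before to 50 after the annotated start, is chr2:77946307-77946606, minus strand, written 5′ to 3′ with capitals marking the motif ACTACAA on either strand.

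Cwc22 promoter: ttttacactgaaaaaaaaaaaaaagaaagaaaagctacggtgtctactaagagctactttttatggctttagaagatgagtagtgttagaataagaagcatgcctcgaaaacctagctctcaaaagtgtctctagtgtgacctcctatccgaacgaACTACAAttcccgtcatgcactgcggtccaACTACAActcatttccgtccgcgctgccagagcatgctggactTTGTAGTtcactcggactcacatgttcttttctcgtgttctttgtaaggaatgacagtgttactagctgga

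The motif occurred 2 times forward and 1 time in reverse, as TTGTAGT. These letters are part of the motif known for the transcription factor ZNF143. Of 32851 promoter windows searched on both strands, 3.24% held ACTACAA and 4 windows (0.0122%) held ACTACAA at least 3 times. The limit of 3 is the number in the Cwc22 window itself, so this share describes the window and tests nothing. The window was 42.0% G and C and held 11 CG dinucleotides. These matches describe letters in the window and not occupancy.

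The reference genome also holds a row of 7 predicted genes with near-identical sequence, found by shared stretches of 50 bases after the files had been seen. Gm13698, Gm13693, Gm13695, Gm13696, Gm13694, Gm13697 and Gm13691 stood in that order on the plus strand of chromosome 2, from 83955693 to 83993045, in steps of 5810 bases and 6.01 to 6.04 Mb from Cwc22. Each was annotated as 1 exon of 2493 bases with a coding length of 2490 bases, against 2724 coding bases in 20 exons for the Cwc22 transcript compared. Over 2471 aligned coding bases the copies differed from Cwc22 at 39 positions, an identity of 98.4%. A stretch of 120 coding bases is shown to let the likeness be seen, with capitals at the 3 positions that differ.

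Cwc22, coding bases 26 to 145: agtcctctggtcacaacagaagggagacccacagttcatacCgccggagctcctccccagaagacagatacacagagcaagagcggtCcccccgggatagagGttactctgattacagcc
Gm13691, coding bases 29 to 148: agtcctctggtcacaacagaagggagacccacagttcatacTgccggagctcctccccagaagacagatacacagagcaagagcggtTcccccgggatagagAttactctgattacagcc

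All 7 copies had 0 counts in every heart, where a count of 0 allows up to 3 counts in a library. Each shared 16.4% to 16.5% of the 6997 distinct 50-base stretches of Cwc22, so a read of that length from such a stretch could not be assigned to 1 locus. The share with any other gene was 18.5%. This includes 138 stretches shared with Gm13727, a transcript that overlaps Cwc22 over 309 bases of the same strand. How the counting program treated reads matching several places is not given in the sources used here.

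Cwc22 was low and even in the 3 resistant hearts and differed by nearly an order of magnitude among the 3 sensitive ones. Its counts were 418, 331 and 356 in resistant mice 368, 369 and 370. They were 1973, 355 and 3581 in sensitive mice 379, 380 and 381. Sensitive mouse 380 therefore lay within the resistant range, while mice 379 and 381 lay far above it.

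In CPM, the resistant hearts held 19.96, 15.8 and 17.9 and the sensitive hearts 98.0, 18.7 and 186. The exact 95% Poisson intervals of mouse 379 (93.7 to 102 CPM) and mouse 381 (180 to 192 CPM) did not meet each other or those of the other hearts. In ascending order the remaining hearts were 369, 370, 380 and 368, and each interval in that order overlapped the next, from 14.2 to 22.0 CPM in all. These intervals cover counting error only, since the reads carry no molecular identifiers in the sources used here.

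**Figure D1:**
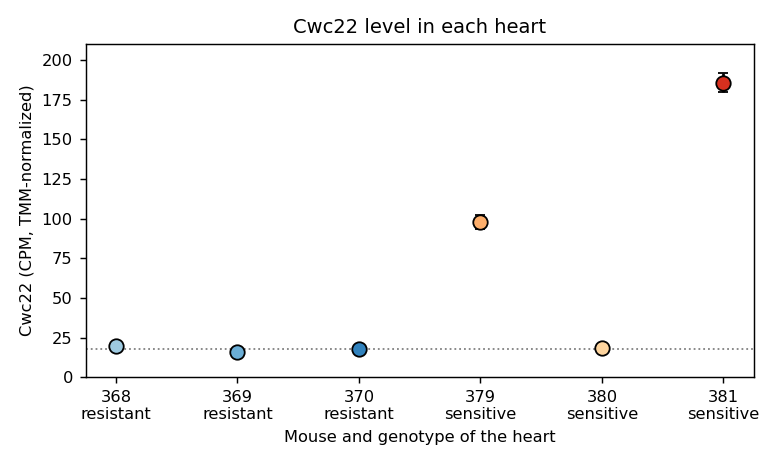
Level of Cwc22 in each of the 6 hearts in CPM, with points coloured by genotype and vertical bars giving the exact 95% Poisson interval of the count. The 3 resistant hearts and sensitive mouse 380 sit between 15.8 and 19.96 CPM, while mouse 379 is at 98.0 and mouse 381 at 186 CPM.

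The mean level was 17.9 ± 2.07 CPM in resistant and 101 ± 83.6 CPM in sensitive hearts (SD, n = 3 each), which is a coefficient of variation of 11.6% against 82.9%. Relative to the resistant mean, mouse 379 was 5.48-fold higher, mouse 380 stood at 1.04-fold and mouse 381 was 10.4-fold higher. The genotype means thus differed through 2 of the 3 sensitive hearts, and the ranges of the genotypes overlapped. On the log2 CPM scale the means were 4.16 ± 0.17 and 6.13 ± 1.71 (SD, n = 3 each), a difference of 1.97 that became 0.07 when mice 379 and 381 were both left out.

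The excess over the resistant mean was 80.1 CPM in mouse 379, 0.79 CPM in mouse 380 and 168 CPM in mouse 381. The excess of mouse 381 was 2.10 times that of mouse 379 (SE 0.07, from counting error alone). This ratio is a description of RNA levels in 2 animals. It gives no number of gene copies.

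Per kilobase of gene length, Cwc22 was at 2.93, 2.32 and 2.62 RPKM in the resistant hearts and 14.4, 2.74 and 27.2 RPKM in the sensitive hearts. In resistant hearts 45.3% of the other tested genes had a lower mean RPKM, so Cwc22 was there a gene of middling level. The length used, 6822 bases, is that of all annotated exons together.

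The spread of Cwc22 among sensitive hearts was wide for its level. Because Cwc22 was chosen for its uneven level, its rank by this spread is a description only. The log2 CPM range from the lowest to the highest sensitive heart was 3.31, against 0.33 in resistant hearts, while the median range of the other 14865 tested genes was 0.29 and 0.27. Of these genes, 21 reached a range as large among sensitive hearts. Of 3589 genes with a mean CPM within 2-fold of that of Cwc22, 2 had a larger range and 8 a range of at least 1.

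The genes of like level with the widest range among sensitive hearts were Hbb-bt, Cyfip2, Alas2, Hba-a2 and Scn4b. Hbb-bt and Hba-a2 encode globin chains and Alas2 the first enzyme of haem synthesis in red cell precursors, and all 3 were highest in mouse 380, where Cwc22 was low. Alas2, for example, was at 25.7, 38.4 and 13.8 CPM in resistant hearts and 21.2, 84.3 and 8.71 CPM in sensitive hearts. The summed level of the 5 erythroid markers was 954, 1272 and 536 CPM in resistant and 796, 3187 and 401 CPM in sensitive hearts, so its highest heart was not one of the high Cwc22 hearts.

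Cyfip2, which encodes a subunit of the actin-regulating WAVE complex, had the range nearest to that of Cwc22 outside the erythroid genes. It was at 20.7, 104 and 22.1 CPM in resistant hearts and 17.3, 194 and 95.02 CPM in sensitive hearts. Its high hearts were mice 369, 380 and 381, which include a resistant heart and differ from those of Cwc22. Scn4b, a sodium channel subunit, ranged over 1.58 on the log2 scale among sensitive hearts and over 1.87 among resistant ones.

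**Figure D2:**
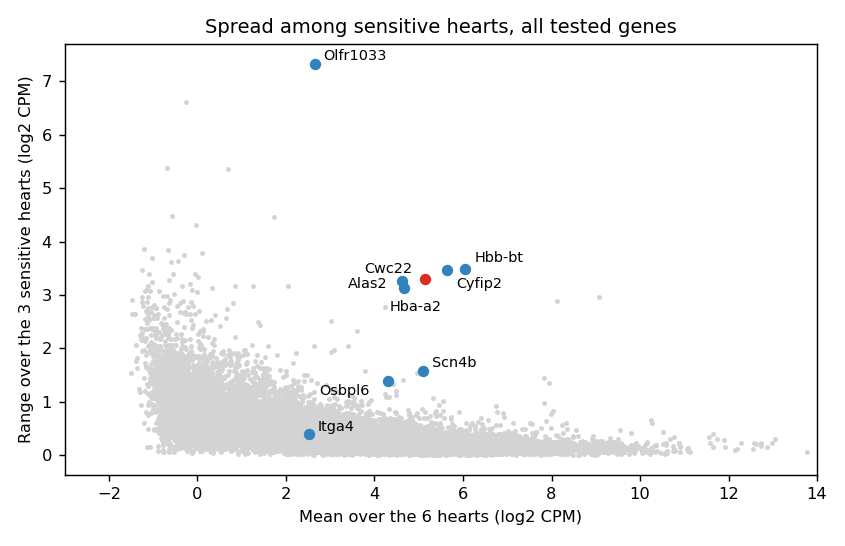
Range of log2 CPM among the 3 sensitive hearts against mean log2 CPM over all 6 hearts, 1 point per tested gene, with Cwc22 in red and other named genes in blue. Cwc22, with a range of 3.31, sits among the globin genes, Alas2 and Cyfip2, far above the median range of 0.29.

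The other summed cell type markers covered narrower ranges than Cwc22 among sensitive hearts. Fibroblast markers summed to 1110 to 1310 CPM in resistant and 988 to 1140 CPM in sensitive hearts, and endothelial markers to 1220 to 1450 and 1230 to 1460 CPM. Smooth muscle markers summed to 889 to 955 and 821 to 933 CPM, and macrophage and leukocyte markers to 163 to 253 and 127 to 167 CPM. The fibroblast, smooth muscle, and macrophage and leukocyte sums were lowest of all hearts in mouse 381. Among sensitive hearts the endothelial sum was also lowest there, while the cardiomyocyte sum was highest there. Of the members of these lists 1 was called, where 1.44% of all tested genes were called. It was 1 of 7 tested endothelial markers, Fabp4, a fatty acid binding protein. Fabp4 was at 374, 426 and 340 CPM in resistant and 528, 470 and 493 CPM in sensitive hearts (log2 fold change 0.39 ± 0.09 SE, edgeR adjusted p = 0.0358). Adipocyte markers were near the detection limit, with sums of 1.72, 1.62 and 0.854 CPM in resistant and 3.77, 1.84 and 1.87 CPM in sensitive hearts. The genotypes thus did not overlap, as held for 20% of single tested genes, and mouse 379, a heart high in Cwc22, was highest. Skeletal muscle markers summed to 1070 to 1270 and 1250 to 1300 CPM, highest in mouse 381, and 0 members of these last lists were called. In bulk hearts, a change in the number of cells of a type and a change in RNA per cell cannot be told apart, and the part of cell makeup in the Cwc22 levels was not tested.

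Genes beside Cwc22 were examined to see whether the whole region was high in mice 379 and 381. Within 2 Mb on either side 49 other genes were listed, 21 of them with no count in any heart and 19 with enough counts to test, 15 toward lower and 4 toward higher coordinates. Of the 19, 1 was called, against 1.44% of all tested genes, 7 were above and 12 below 0 in log2 fold change, and their median was -0.07 against -0.0078 for all other genes. At an unadjusted p under 0.05 there were 5 of the 19, where the share over all tested genes was 14.5%. The genotypes did not overlap for 5 of the 19, where the share over all tested genes was 20%. In mice 379 and 381 the highest level of any tested neighbour, that of Zfp385b in mouse 381, was 138% of its resistant mean, against 548% and 1040% for Cwc22.

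The nearest tested gene, Zfp385b, encodes a zinc finger protein and lies at -61.5 kb, toward lower coordinates. It was at 6.49, 4.92 and 7.33 CPM in resistant and 7.45, 8.58 and 8.61 CPM in sensitive hearts (log2 fold change 0.39 ± 0.18 SE, adjusted p = 0.326), with mouse 380 as high as mouse 381. On the other side the nearest was Ube2e3, a ubiquitin-conjugating enzyme gene at 0.922 Mb. It was at 35.9, 40.2 and 37.6 CPM in resistant and 43.0, 38.4 and 42.8 CPM in sensitive hearts (log2 fold change 0.13, adjusted p = 0.527). Neither gene came near the folds of Cwc22 in mice 379 and 381.

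Itga4, which encodes the integrin α4 chain that leukocytes use to leave vessels, lies at 1.31 Mb and fell. It was at 7.45, 7.83 and 6.78 CPM in resistant hearts and 4.22, 4.95 and 3.73 CPM in sensitive hearts, with no overlap between the genotypes. The log2 fold change was -0.77 ± 0.18 SE with an adjusted p of 0.0498, just under the threshold, and over 14 other fits the adjusted p ran from 0.00847 to 0.534, and Itga4 was not called when any 1 heart was left out. The summed macrophage and leukocyte markers were at 188, 253 and 163 CPM in resistant and 167, 164 and 127 CPM in sensitive hearts, overlapping between genotypes with 0 members called, and their part in the Itga4 level was not tested.

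Osbpl6, an oxysterol-binding protein family member at -1.28 Mb, ran opposite to Cwc22 in mice 379 and 381. It was at 26.5, 25.9 and 29.0 CPM in resistant hearts and 14.9, 22.7 and 8.61 CPM in sensitive hearts. Mice 379, 380 and 381 thus held 54.9%, 83.7% and 31.7% of the resistant mean. The log2 fold change was -0.82 ± 0.22 SE with an adjusted p of 0.0862, which did not pass the threshold. Over 14 other fits the adjusted p ran from 1.68e-09 to 0.649, and Osbpl6 was called in 2 of them, without the filter on low counts and without mouse 380.

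Several neighbours of low level were lowest in mouse 379, mouse 381 or both. Pde11a, a cyclic nucleotide phosphodiesterase gene at -1.54 Mb, was at 2.91, 2.01 and 3.62 CPM in resistant and 1.69, 2.10 and 0.208 CPM in sensitive hearts (log2 fold change -1.09, adjusted p = 0.336), and mouse 381 had 4 counts. Gm13943, a long intergenic noncoding RNA at -0.564 Mb, was at 6.06, 6.12 and 5.07 CPM in resistant and 3.92, 3.73 and 1.56 CPM in sensitive hearts (log2 fold change -0.90 ± 0.28 SE, adjusted p = 0.141). Cyct, the testis cytochrome c gene, had 12, 17 and 9 counts in resistant and 0, 5 and 0 counts in sensitive hearts and was too low to test. Ttc30a1 and Ttc30a2 were lowest in mouse 379, at 4.92 and 0.546 CPM, but nearly as low in mouse 381, at 5.24 and 0.622 CPM. In mice 379, 380 and 381 Ttc30a1 had 99, 136 and 101 counts and Ttc30a2 had 11, 35 and 12. Zfp385b was about equally high in mice 380 and 381, with 163 and 166 counts.

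The remaining 13 tested neighbours had log2 fold changes from -0.36 to 0.08 and adjusted p from 0.456 to 0.981. They included Ttn, the giant sarcomere spring protein and the neighbour with the highest CPM, at 5614, 4885 and 7207 CPM in resistant and 6457, 5978 and 6315 CPM in sensitive hearts. Ttc30a1, Ttc30a2 and Ttc30b, close paralogs with a role in cilia, can share reads and are uncertain one by one. The others were Agps, Rbm45, Prkra, Fkbp7, Plekha3, Ccdc141, Sestd1, Ssfa2 and Pde1a. Just outside the window, Dnajc10 at 2.37 Mb stood at 53.2 to 55.1 CPM in all 6 hearts, and Gm13657 on the other side had under 1.2 CPM throughout.

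**Figure D3:**
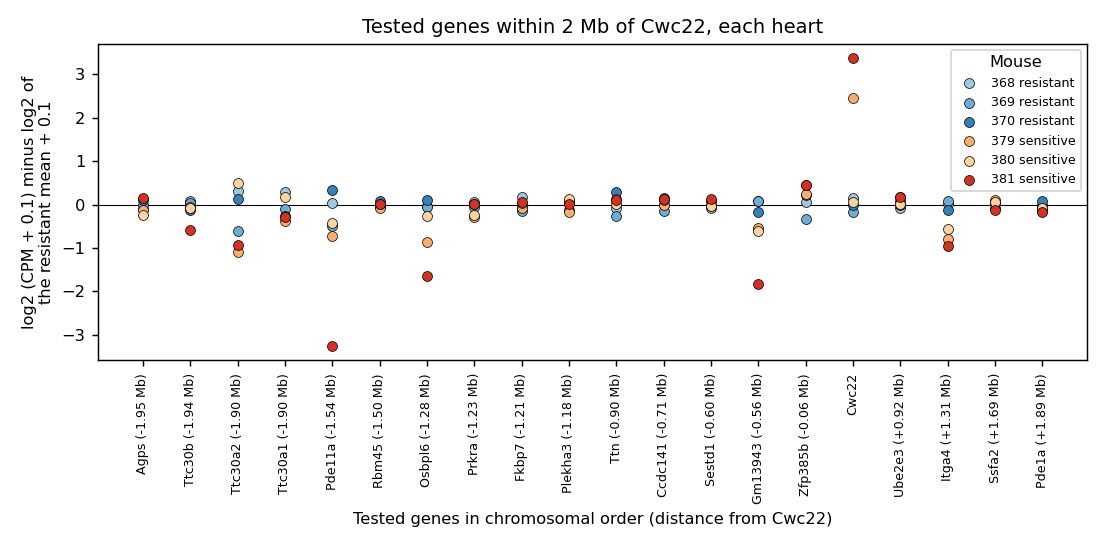
Level of Cwc22 and its tested neighbours within 2 Mb in each heart, as log2 of CPM relative to the resistant mean after adding 0.1 CPM to both, ordered along the chromosome. Cwc22 rises far above the resistant mean in mice 379 and 381, at 548% and 1040% of it. Pde11a, Gm13943 and Osbpl6 dip most in mouse 381, to 7.29%, 27.1% and 31.7% of theirs.

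Genes were then compared by how closely their log2 CPM followed Cwc22 over the 6 hearts. These points share libraries and most of the spread comes from mice 379 and 381, so the coefficients are descriptions of 6 hearts. Of the other 14865 tested genes, 451 (3.03%) had a Pearson r of at least 0.9 or at most -0.9, and 3033 (20.4%) had a log2 CPM range of at least 1. Of 898 genes with a log2 CPM range and a mean log2 CPM of at least 1, 2 (0.223%) had a Pearson r of at least 0.9 and 36 (4.01%) an r of -0.9 or less.

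Among these 898 genes, the 5 most like Cwc22 were Tfpi (r = 0.92), Slc10a6 (0.91), 0610009L18Rik (0.90), Gcat (0.89) and Gm26982 (0.89). Over the resistant hearts and mouse 380 alone, their r was 0.948, -0.0812, 0.958, 0.986 and -0.00564 in that order. Tfpi encodes the tissue factor pathway inhibitor of coagulation and Slc10a6 a transporter of sulfated steroids. Tfpi was at 108, 80.9 and 99.7 CPM in resistant and 121, 95.6 and 168 CPM in sensitive hearts, so mice 379, 380 and 381 held 126%, 99.4% and 175% of the resistant mean. Slc10a6 was at 1.67, 2.01 and 2.86 CPM in resistant and 4.82, 3.00 and 6.90 CPM in sensitive hearts. Both were picked for a high r with Cwc22 and kept its order among sensitive hearts, with far smaller folds.

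Among the same 898, the 5 least like it were Casp1 (r = -0.99), 2810002D19Rik (-0.98), Igsf10 (-0.98), Osbpl6 (-0.97) and Specc1 (-0.97). Without mice 379 and 381, their r was -0.658, 0.116, -0.905, -0.114 and -0.802 in that order. Casp1, the caspase that processes interleukin 1, was at 3.63, 3.92 and 3.62 CPM in resistant and 2.18, 3.31 and 1.61 CPM in sensitive hearts. Of the 10 genes, Tfpi, 2810002D19Rik and Osbpl6 lie on chromosome 2 with Cwc22, and the other 7 on other chromosomes.

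Because 3 of these 10 shared its chromosome, all variable genes of chromosome 2 were examined on the CPM scale, a step added after the values had been seen. Of 3033 genes with a log2 CPM range of at least 1, 79 (2.6%) had an r of at least 0.9 or at most -0.9 with Cwc22 in CPM, and on other chromosomes 72 of 2834 (2.54%). On chromosome 2 the counts were 4 of 22 (18.2%) within 10 Mb, 1 of 15 (6.67%) from 10 to 20 Mb, 1 of 66 (1.52%) from 20 to 50 Mb and 1 of 96 (1.04%) beyond 50 Mb. The 4 within 10 Mb were Gm13707, Osbpl6, Tfpi and Olfr1033. Gm13707 rested on few reads, with 12, 13 and 11 counts in resistant and 10, 13 and 5 counts in sensitive hearts. Osbpl6 and Tfpi, and 2810002D19Rik from 10 to 20 Mb, are the genes that prompted this step and are counted in it again. On the log2 CPM scale the same genes gave fewer near Cwc22, with 2 of 22 (9.09%) within 10 Mb, Osbpl6 and Tfpi, against 103 of 3033 (3.4%) in all and 99 of 2834 (3.49%) on other chromosomes, while Gm13707 (r = -0.88) and Olfr1033 (r = -0.83) did not reach 0.9. From 10 to 20 Mb there was again 1 of 15, and over all tested genes, variable or not, 1.5% of chromosome 2 had an r of at least 0.9 and 1.86% of -0.9 or less, against 1.2% and 1.81% elsewhere. The distance bins were set with these values known and hold few genes, and no test was made.

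Olfr1033, an olfactory receptor gene 8.07 Mb away (chromosome 2, 86020633 to 86045171), was named after its values were seen. Its counts were 335, 340 and 307 in resistant and 185, 304 and 0 in sensitive hearts, or 16.0, 16.2 and 15.4 CPM against 9.19, 16.0 and 0 CPM. Mouse 379 thus held 57.8% of the resistant mean, mouse 380 held 101%, and mouse 381 was at least 102-fold lower, against a floor of 3 counts in that library (0.156 CPM). The genotypes overlapped, and edgeR gave an adjusted p of 0.512. Olfr1034, which starts just beyond it at 86045861, rested on few reads. It had 23, 14 and 16 counts in resistant and 27, 8 and 0 counts in sensitive hearts, so it was also 0 in mouse 381 but highest in mouse 379.

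Going farther, 2810002D19Rik, a noncoding transcript 16.5 Mb away, was at 4.63, 4.49 and 4.72 CPM in resistant and 2.93, 4.31 and 2.08 CPM in sensitive hearts. Mice 379, 380 and 381 held 63.5%, 93.5% and 45% of the resistant mean. As with Osbpl6 and Olfr1033, mouse 379 lay between mouse 380 and mouse 381. These genes were picked by their correlation with Cwc22, so this order partly follows from that choice.

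**Figure D4:**
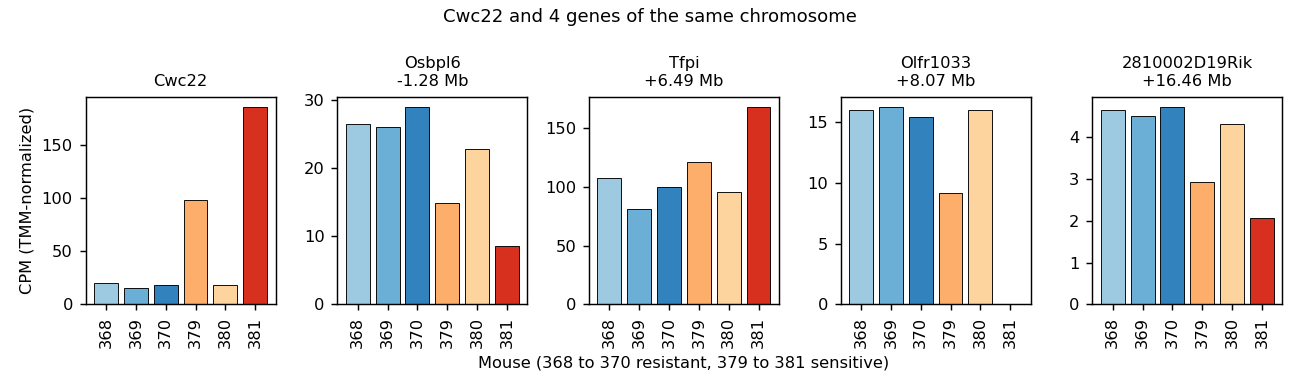
Level of Cwc22, Osbpl6, Tfpi, Olfr1033 and 2810002D19Rik in each heart as bars in CPM, 1 panel per gene with its own axis from 0 and its distance from Cwc22 in Mb above. Mouse 381 is highest for Cwc22 and Tfpi and lowest for the other 3, with Olfr1033 at 0 CPM. Mouse 379 lies between mice 380 and 381 in every panel, which partly follows from picking the genes by their correlation with Cwc22.

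Among genes of the pathway in which Cwc22 acts, and relatives by domain or family, none passed the test between genotypes. Over 62 tested genes in 5 lists, 0 were called by edgeR, where 1.44% of all tested genes were called. At an unadjusted p under 0.05 there were 6, where the share over all tested genes was 14.5%, and DESeq2 also called 0. In sensitive hearts 32 stood above and 30 below 0 in log2 fold change, with a median of 0.0033, against -0.0078 over all other genes. This test includes mouse 380, where Cwc22 was at the resistant level. Over the 6 hearts 1 of the 62 had an r with Cwc22 of at least 0.9 (Syf2, 0.91) and 1 of at most -0.9 (Magohb, -0.91). The share beyond these limits was 3.03% over the other tested genes. Whether these genes follow Cwc22 was not tested.

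Eif4a3, the helicase that Cwc22 delivers, was at 34.7, 36.4 and 30.5 CPM in resistant and 32.1, 32.5 and 27.9 CPM in sensitive hearts (log2 fold change -0.14 ± 0.10 SE, adjusted p = 0.563). Per length its mean was 16.0 RPKM in resistant and 14.5 RPKM in sensitive hearts. Cwc22, at 2.32 to 2.93 RPKM in resistant hearts, was well below Eif4a3 there. In mouse 379 (14.4 RPKM) it was close to the sensitive mean of Eif4a3 and in mouse 381 (27.2 RPKM) above it. The length used for Cwc22 was 6822 bases, while its longest annotated transcript has 3471 exon bases. How close mouse 379 stood to Eif4a3 therefore depends on the length chosen.

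Of the other core members of the exon junction complex, Rbm8a and Magoh form the dimer that locks eIF4A3 on RNA, Magohb is the paralog of Magoh, and Casc3 stabilises the complex. Their log2 fold changes were 0.08 ± 0.09, -0.01 ± 0.13, -0.48 ± 0.25 and -0.07 ± 0.09 (SE) respectively, with adjusted p of 0.73, 0.982, 0.394 and 0.76. Magohb was at 3.68, 4.54 and 3.52 CPM in resistant and 2.38, 3.52 and 2.49 CPM in sensitive hearts, so mouse 380 met the lowest resistant heart. Magoh and Magohb are close in sequence and can share reads.

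Of 9 peripheral proteins of the complex, which bind the core for splicing, export or decay, 7 stood above 0, with a median log2 fold change of 0.05. The smallest p values belonged to Acin1 (0.13), Srrm1 (0.07) and Rnps1 (0.06), with adjusted p of 0.481, 0.675 and 0.819. Of 10 nonsense-mediated decay factors, 5 stood above and 5 below 0, with a median of -0.01. Upf2, which links the complex to the helicase Upf1, stood at a log2 fold change of 0.23, Upf1 at -0.13 and the endonuclease Smg6 at 0.14, with adjusted p of 0.219, 0.486 and 0.472.

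The 28 spliceosome proteins, members of the complexes in which Cwc22 sits, had a median log2 fold change of -0.02, with 12 above and 16 below 0. Syf2 had the smallest p (0.29 ± 0.09 SE, adjusted p = 0.124), followed by Ppil1, a spliceosomal cyclophilin (-0.37, adjusted p = 0.145), and Bcas2, a subunit of the Prp19 complex (-0.21, adjusted p = 0.228). The 10 relatives with MIF4G domains or in the eIF4A family had a median of 0.10, led by Paip1 (0.15), Mif4gd (0.21) and Eif4g1 (0.11), with adjusted p of 0.383, 0.455 and 0.498. Nom1, another MIF4G protein that pairs with eIF4A3, was at a log2 fold change of 0.05 (adjusted p = 0.876).

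**Figure D5:**
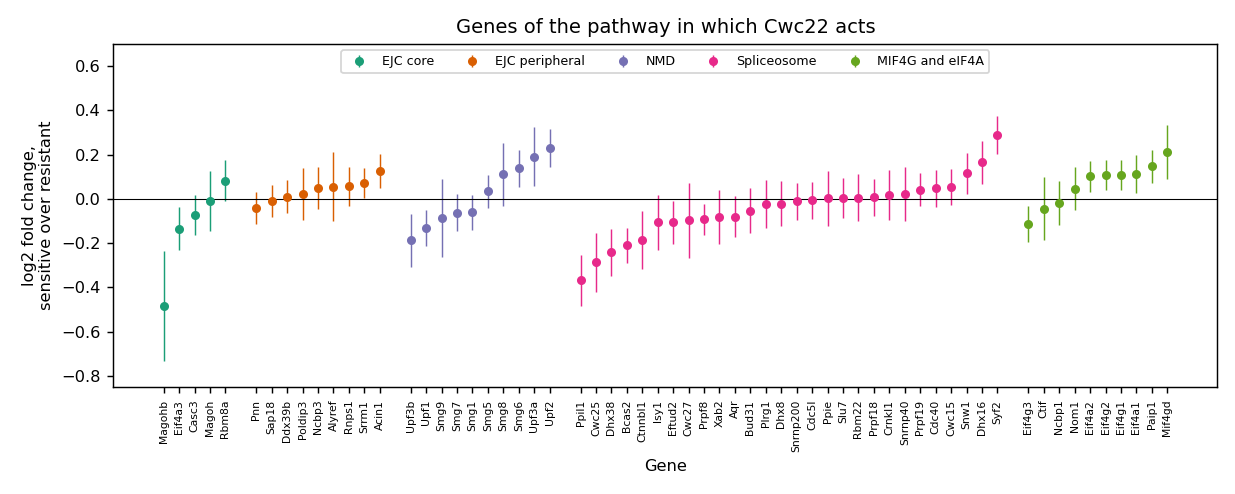
Log2 fold change of each tested partner or related gene (sensitive over resistant hearts, points with SE bars) by list, from the exon junction complex core to MIF4G relatives. The 62 genes lie between -0.48 and 0.29 and 0 were called. The Cwc22 means differed by 1.97 on the log2 CPM scale, through mice 379 and 381.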

How the data were processed

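RNA-seq of 6 whole mouse hearts was analysed from the deposited gene counts. The authors had Novogene sequence total RNA on an Illumina NovaSeq system, and the submitters' processing notes name fastp, STAR, featureCounts and mm10. Versions, the strand setting and the treatment of multiply mapped reads are not given in the sources used here. The authors' other table, with mean signal, fold changes, Wald statistics and p-values of their DESeq2 comparison, was not used. Unmapped per-sample columns numbered 0.

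Counts were analysed in R 4.3.3 with edgeR 4.0.16 (TMM, filterByExpr with minimum count 10 and minimum total 15, quasi-likelihood test, Benjamini-Hochberg adjustment over 14866 genes). Log2 CPM used a prior count of 2. The fit was tested on simulated data. Samples of a group differed beyond sampling noise (chi-square per gene 6.85 to 13.1). For 3 against 3 hearts the smallest p of a two-sided exact permutation test is 0.1. Genomic positions are those of the count table, which GENCODE M21 repeats for the genes of the window, and the promoter is from RefSeq (GRCm38.p6), where Cwc22 was matched by symbol.

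The gene, the window and the lists, written from general knowledge, were chosen with earlier results of these data known. Genes were named by rule: tested neighbours, copies, the exon junction complex core, called list members and the 3 smallest p values per list, the 5 highest and 5 lowest correlations with Cwc22, and the 5 widest ranges at like level. Another gene named by the rule is not reported here. Olfr1033, Olfr1034, Cyct, Nom1, Dnajc10 and Gm13657 were added after their values were seen. Also added then were the search for copies, the CPM-scale correlation along chromosome 2 and the fits without mice 379 and 381. Alternatives were RLE or upper-quartile factors, DESeq2 1.42.0, other filters, a robust prior, the removal of mitochondrial and globin genes, a 1 Mb window, and leaving out each heart.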

Additional observations from a re-analysis of the deposited data

How the results depend on the processing

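Over all tested genes the number called was 214 by the main test, 618 without a filter on low counts and 403 with DESeq2. It ran from 80 to 158 when each heart was left out in turn, and was 48 without mice 379 and 381 (the lone sensitive heart is then assumed to vary like the resistant ones). Of the calls, 116 of 214 were higher in sensitive hearts with TMM, 246 of 403 with DESeq2 and 108 of 231 with upper-quartile factors. Within 2 Mb of Cwc22 the number called was 1, and it was 0 with RLE factors, 4 without the filter (Osbpl6, Itga4, Gm13943 and Pde11a), 0 in a 1 Mb window and 0 without mice 379 and 381. It ran from 0 to 1 when each heart was left out, where the 1 was Osbpl6 without mouse 380. Itga4 was not called when any single heart was left out. The partner lists had 0 calls under every alternative run.

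The log2 range of Cwc22 among sensitive hearts ran from 0.926 (without mouse 380) to 3.31 when each heart was left out, and was 2.39 without mouse 381. Its difference between genotype means, 1.97, ran from 1.26 without mouse 381 to 2.92 without mouse 380, and was 0.0715 without mice 379 and 381. Genes with r of at least 0.9 numbered 2, and 10 by Spearman correlation, 31 with a log2 range of at least 0.5 and 9 on the CPM scale. Genes with r of -0.9 or less numbered 36, and 115 with the wider range limit and 21 on the CPM scale.

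Log2 fold changes turned sign for 12 named genes, none of which was called in any fit. Without mice 379 and 381 they became -0.0203 for Sestd1, 0.129 for Plekha3, 0.0187 for Rbm45, 0.168 for Ttc30a1, 0.525 for Ttc30a2, 5.25e-06 for Casc3 and -0.0126 for Rnps1, and with upper-quartile factors -0.00251 for Fkbp7. When each heart was left out in turn, they ran from -0.0333 to 0.256 for Ttn, -0.186 to 0.0189 for Agps, -0.0241 to 0.0801 for Sestd1, -0.0188 to 0.0931 for Ssfa2, -0.074 to 0.0734 for Plekha3, -0.0419 to 0.0308 for Rbm45, -0.0552 to 0.116 for Fkbp7, -0.325 to 0.0313 for Ttc30a1, -0.103 to 0.0794 for Magoh and -0.000949 to 0.132 for Rnps1. The cause of these changes was not tested. The 3 hearts per genotype, and the dependence of Cwc22 on mice 379 and 381, limit every statement on spread. Counts per gene give neither alleles nor copies.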
